A study of Mus musculus with 6 samples.

Results

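Rab GTPases are small membrane-bound switches, and each marks the compartments of the cell on which it is loaded with GTP. Guanine nucleotide exchange factors (GEFs) switch a Rab on, GTPase-activating proteins (GAPs) switch it off, and effectors read the active form to tether, move or fuse vesicles. In macrophages this machinery sorts what the cell takes up, with Rab5 proteins on early endosomes and phagosomes, Rab7 on their late forms, and other members on recycling, secretory and lysosome-related membranes. The members described here are the protein-coding mouse genes whose symbol is Rab followed by a number and at most 1 of the letters a to d. There are 59 of them among the 55401 genes of the deposited table, of which 21208 are protein-coding.

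Gene expression was measured by bulk RNA sequencing in RAW264.7 cells, a wild-type mouse macrophage-like line kept in DMEM with serum. One group of 3 libraries received phosphate-buffered saline (PBS), and the other, also of 3 libraries, received molybdenum disulfide (MoS2) at 6.25 µg/ml. How long the treatment lasted and in what form MoS2 was given are not stated in the labels. Separate cultures are not named for the replicates either, and a p-value then reflects only the spread among these libraries, which may be technical. The whole study thus describes 1 line, and the comparison asks how its Rab genes differ between MoS2 and PBS.

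Total counts ran from 15767618 to 18412762 per library. Levels are given as CPM, the read count of a gene over the size of its library, with library sizes corrected by TMM factors. These factors were 1.31 in each PBS library and 0.743 to 0.783 in the MoS2 libraries, and scaling by library totals alone moves the median gene by -0.77 on the log2 scale. Each rise below is given with its log2 change under library totals as well. Of 10 macrophage markers 9 were tested, and Mertk, with 2 counts in each group, was not. Of the 9, 2 were called higher and 4 lower; Cd68 went from 614 ± 43.7 to 1304 ± 25.5 CPM (SD, n = 3) and Csf1r from 1909 ± 64.6 to 513 ± 15.1 CPM, and the part of such shifts in the Rab values was not tested. None of the 23 markers of neutrophils and mast cells, T and B cells, fibroblasts, or epithelium and endothelium was tested. Each of those 4 lists summed to at most 0.782 CPM in any library, and Mpo, Cma1, Cd3d, Cd8a, Col3a1, Cdh1 and Krt18 were at 0 in all of them. In bulk RNA, fewer cells with a transcript and less of it per cell cannot be told apart.

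Rab genes moved in both directions. Of the 59 members, 41 had enough counts to be tested (about 10 counts in 3 libraries), and 32 of these passed an adjusted p under 0.05 in edgeR's quasi-likelihood F test with Benjamini-Hochberg adjustment over 12972 genes. By this test 18 were higher with MoS2 and 14 lower, which left 9 without a call. The same test called 80.7% of all tested genes, 38.3% higher and 42.4% lower, beside 43.9% and 34.1% of the tested Rab genes. The Rab shares lie near that background. The median log2 fold change of the tested Rab genes was 0.10, against -0.08 over all tested genes. With upper-quartile factors the Rab median was -0.03, and with library totals it was -0.67 against -0.85 over all genes.

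The split between rises and falls depends on the scaling. With library totals, 4 Rab genes were called higher and 32 lower, where 85.7% of all tested genes were called, 18.0% higher and 67.7% lower. All 14 falls were called lower under both scalings, but library totals move the median gene by -0.77, so this agreement is no check on the falls. Of the 18 rises, 10 had a negative log2 change with library totals, 4 (Rab15, Rab30, Rab9 and Rab5c) were still called higher, and 4 (Rab2a, Rab13, Rab11a and Rab5a) kept a positive change that was not called. Rab30, also among the rises of at least 2-fold, passed the low-count filter only through the MoS2 libraries, where it is high. Called changes of at least 2-fold, 4 rises and 6 falls, made up 24.4% of the tested Rab genes, beside 43.2% of all tested genes. In 21 tested Rab genes every MoS2 library lay above every PBS library, and in 15 every one lay below (38.8% and 43.1% of all tested genes). None of the 32 called Rab genes had overlapping groups, which adds little to the calls, since both come from the same libraries.

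**Figure D1:**
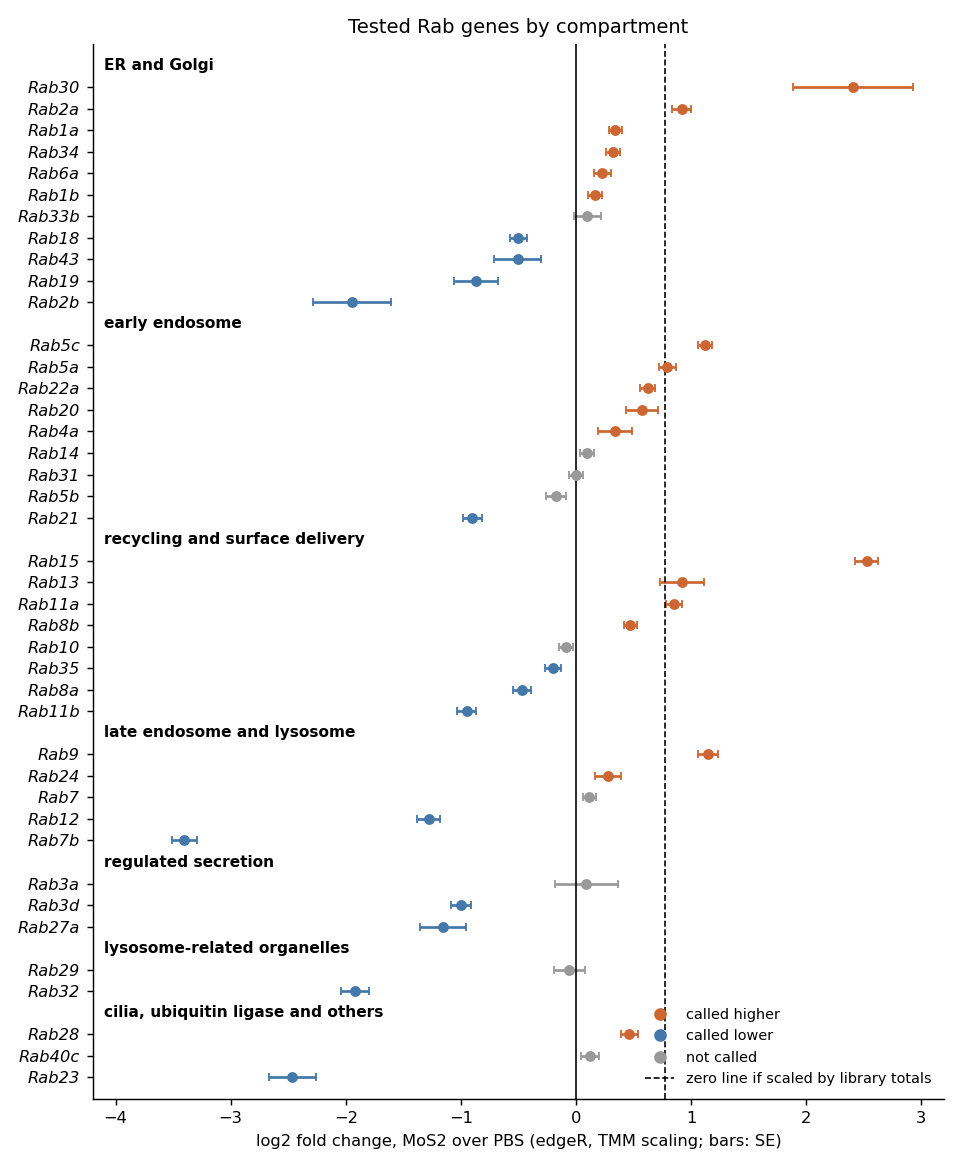
Log2 fold change (MoS2 over PBS, edgeR with TMM factors) of the 41 tested Rab genes, grouped by the compartment they serve, with bars for the standard error and colours for the call; the dashed line is where zero would lie with library totals. Rab7b at -3.40 and Rab15 at 2.53 lie farthest from zero, and most other members lie within 1 log2 unit of it.

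The most abundant Rab genes were compared per kilobase of summed exon length, since reads scale with transcript length. With PBS the order was Rab7 at 81.9 ± 2.50 CPM per kb (SD, n = 3), Rab5c at 65.2 ± 2.81, Rab1b at 64.8 ± 0.758, Rab8b at 54.7 ± 0.610 and Rab10 at 51.9 ± 0.147. Rab5c and Rab1b do not differ beyond their spread. With MoS2 the order became Rab5c at 142 ± 5.06, Rab2a at 89.9 ± 4.55, Rab7 at 88.7 ± 0.756, Rab8b at 75.9 ± 1.78 and Rab1b at 72.5 ± 2.47. Rab2a and Rab7 lay within their spread of each other there, as did Rab8b and Rab1b. These genes serve the basic routes of the cell: Rab1 and Rab2 proteins act between the endoplasmic reticulum (ER) and Golgi, Rab5 proteins at early endosomes, Rab7 at late endosomes, and Rab8 and Rab10 proteins in delivery to the surface.

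The 5 highest members of each group held 39.9% ± 0.961 of the family's reads per length with PBS and 48.2% ± 0.129 with MoS2, and the 10 highest held 66.0% ± 0.217 and 74.1% ± 0.293 (SD, n = 3). Rab5c alone accounted for 8.16% ± 0.320 with PBS and 14.6% ± 0.271 with MoS2. Rab7 accounted for 10.3% ± 0.435 with PBS and 9.12% ± 0.140 with MoS2. These shares are ratios within a library and do not depend on the scaling factors. Over the whole library, reads of all 59 members made up 0.363%, 0.363% and 0.359% of counts with PBS and 0.243%, 0.247% and 0.240% with MoS2, whereas their TMM-scaled sum went from 2772 to 3183 CPM. The direction of the family's total thus turns with the scaling.

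**Figure D2:**
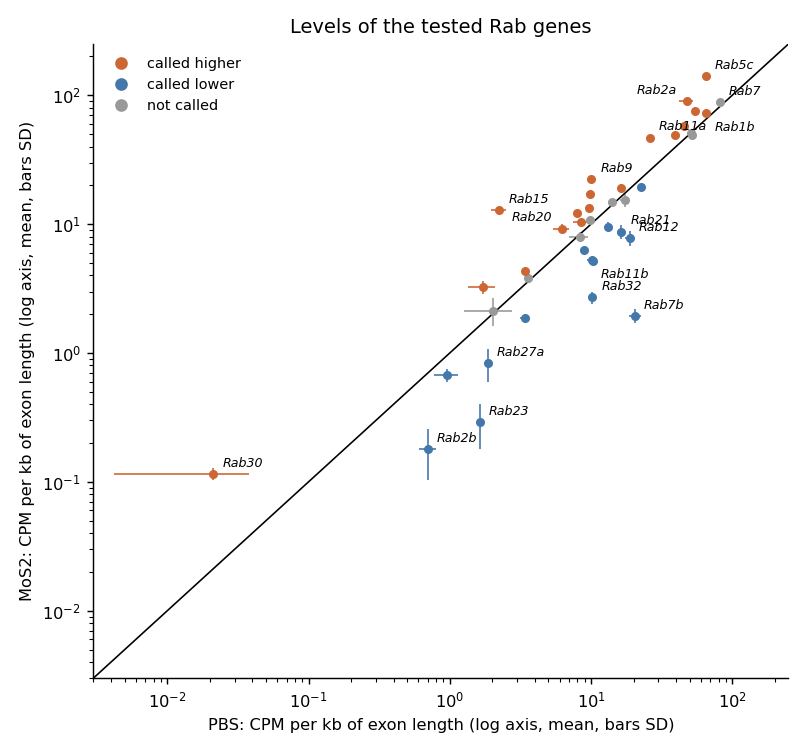
Mean level of each tested Rab gene in PBS (x axis) and MoS2 (y axis) libraries, in CPM per kb of exon length on log axes, with bars for the SD of 3 libraries and a line of equal levels. Rab5c reaches the highest level with MoS2, Rab15 lies above the line, and Rab7b, Rab23 and Rab32 lie below it.

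Among late endosome and lysosome members, 2 of 5 tested genes were called higher (40.0%, beside 38.3% of all genes), 2 lower (40.0%, beside 42.4%) and 1 neither. With library totals 1 was called higher and 4 lower, beside 18.0% and 67.7% of all genes. Rab7b, which acts between late endosomes, lysosomes and the Golgi and is known in macrophages for the traffic of Toll-like receptors, fell the most of all members. Its levels were 84.4, 99.98 and 99.8 CPM with PBS and 9.58, 9.65 and 7.68 CPM with MoS2. The highest MoS2 library thus stood far under the lowest PBS library, a 10.6-fold lower level with a log2 fold change of -3.40 ± 0.11 (SE) and an adjusted p of 6.17e-12 (edgeR). Rab7b (ENSMUSG00000052688.12, chr1:131688695-131715439 on GRCm38) went from rank 12 to rank 35 of the family by level per length.

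Rab7, the main Rab of late endosomes and phagolysosomes, was not called. It stood at 207, 215 and 219.8 CPM with PBS and 229, 233 and 233 CPM with MoS2, with a log2 fold change of 0.12 ± 0.06 (SE) and an adjusted p of 0.0827 (edgeR). Its groups did not overlap, but the change was small beside that of Rab7b. With RLE factors (adjusted p = 0.0232, edgeR) and with DESeq2 (0.0222) Rab7 was called higher. With upper-quartile factors its log2 change was -0.01 without a call. With library totals it was -0.66 and Rab7 was called lower (adjusted p = 1.90e-07, edgeR), as were 67.7% of all genes. Rab9, which returns receptors from late endosomes to the Golgi, measured 16.9, 18.5 and 17.5 CPM with PBS and 37.9, 37.4 and 41.9 CPM with MoS2. Every MoS2 library had more than the highest PBS library, a 2.22-fold rise (log2 1.15 ± 0.09 (SE), adjusted p = 3.25e-08, edgeR) that was 0.37 with library totals.

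Rab12, which directs recycling receptors to lysosomes, had 62.0, 56.3 and 53.9 CPM with PBS and 27.2, 22.0 and 21.7 CPM with MoS2. The groups were well apart, with a 2.43-fold fall (log2 -1.28 ± 0.10 (SE), adjusted p = 3.16e-08, edgeR). Rab24, linked to autophagy, was called higher at 0.28 and had -0.50 with library totals. That value is uncertain, because 62.4% of the exon bases of Rab24 lie on the opposite strand from exons of Prelid1, which had 4938 to 7864 counts per library, and the counts come with a strand setting not given in the sources used here.

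Lysosome-related organelles are served by Rab32, Rab38 and Rab29. Rab32 measured 24.8, 24.2 and 22.6 CPM with PBS and 5.67, 6.97 and 6.29 CPM with MoS2. All 3 MoS2 libraries lay far below the PBS range, with a log2 fold change of -1.92 ± 0.12 (SE) and an adjusted p of 3.33e-09 (edgeR). Rab29, a partner of the kinase LRRK2 at the Golgi and lysosomes, overlapped between groups, at 14.3, 11.6 and 10.6 against 12.0, 10.6 and 12.5 CPM, and was not called (-0.06 ± 0.14 (SE), adjusted p = 0.709, edgeR), although removing each library's trend on gene length gave -0.51 and a call (adjusted p = 0.00139). Rab38 had no count in any library, which allows up to 0.0292 CPM over all 6 (3 of 102840751 counts, counting error only).

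Of 9 tested early endosome members, 5 were called higher (55.6%, beside 38.3% of all genes), 1 lower (11.1%, beside 42.4%) and 3 neither. With library totals 1 was called higher and 6 lower, beside 18.0% and 67.7% of all genes. Rab5c, 1 of 3 closely related Rab5 proteins that drive early endosome fusion, had 139, 150.2 and 139.7 CPM with PBS and 306, 303 and 324 CPM with MoS2. All 3 MoS2 libraries lay far above the PBS range, a 2.17-fold rise (log2 1.12 ± 0.06 (SE), adjusted p = 1.13e-09, edgeR) that was still called, at 0.35, with library totals. Rab5a went from 54.6, 53.4 and 47.8 to 90.1, 86.6 and 93.5 CPM. Its groups were apart by more than their spread (log2 0.79 ± 0.07 (SE), adjusted p = 2.14e-07, edgeR), but the change came to 0.02 with library totals.

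Rab5b, the remaining paralogue, was not called. Its levels were 67.1, 73.5 and 77.6 CPM with PBS and 65.7, 70.6 and 56.9 CPM with MoS2, and the groups overlapped. The log2 fold change was -0.18 ± 0.09 (SE) with an adjusted p of 0.0768 (edgeR). Leaving out PBS replicate 1 or MoS2 replicate 2 gave a call in the lower direction, at adjusted p-values of 0.0215 and 0.0319.

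Rab22a, an early endosome Rab of the same branch as Rab5, measured 55.5, 57.2 and 59.4 CPM with PBS and 90.2, 85.3 and 89.2 CPM with MoS2. This rise (log2 0.62 ± 0.07 (SE), adjusted p = 9.36e-07, edgeR) separated all libraries but turned to -0.15 with library totals. Its relative Rab31 had a log2 change of -0.002 and was not called. Rab21, known for the uptake of integrins, had 85.3, 79.4 and 83.4 CPM with PBS and 39.2, 43.8 and 49.7 CPM with MoS2. It was the 1 early endosome member to fall (log2 -0.90 ± 0.09 (SE), adjusted p = 2.73e-07, edgeR). Rab20, found on macrophage phagosomes, changed by 0.57 and by -0.20 with library totals. Rab4a, of fast recycling, changed by 0.34 and by -0.43 with library totals, and Rab14 by 0.09 without a call. The call of Rab4a (adjusted p = 0.0454, edgeR) was lost on leaving out any 1 of the 3 PBS libraries or MoS2 replicate 1 or 3, with adjusted p-values from 0.0784 to 0.123.

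Recycling and surface delivery held the largest rise of the family. Rab15, which acts at early and recycling endosomes, measured 9.28, 11.8 and 9.98 CPM with PBS and 58.6, 62.9 and 57.3 CPM with MoS2. The MoS2 libraries lay far above the PBS range, and the 5.76-fold rise (log2 2.53 ± 0.10 (SE), adjusted p = 4.08e-11, edgeR) remained at 1.75 with library totals. Rab15 (ENSMUSG00000021062.15, chr12:76797960-76822908) moved from rank 34 to rank 18 by level per length. Of the 8 tested members of this class, 4 were called higher (50.0%, beside 38.3% of all genes), 3 lower (37.5%, beside 42.4%) and 1 neither. With library totals 1 was higher and 5 lower, beside 18.0% and 67.7% of all genes.

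The Rab11 pair of the recycling endosome split. Rab11a had 82.1, 77.0 and 74.0 CPM with PBS and 135, 136 and 149 CPM with MoS2. All MoS2 libraries lay above the PBS range (log2 0.85 ± 0.07 (SE), adjusted p = 5.24e-08, edgeR), with 0.08 under library totals. Rab11b had 67.3, 62.2 and 57.1 CPM with PBS and 30.8, 32.0 and 33.6 CPM with MoS2. Here every MoS2 library lay below the PBS range, with a log2 fold change of -0.95 ± 0.08 (SE) and an adjusted p of 1.19e-07 (edgeR).

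The Rab8 pair, which carries cargo from the Golgi and recycling endosomes to the surface, split with TMM factors, while both genes were lower with library totals. Rab8b had 256, 259 and 262 CPM with PBS and 361, 366 and 349.9 CPM with MoS2. It was the most abundant of its class, and its rise (log2 0.47 ± 0.06 (SE), adjusted p = 3.59e-06, edgeR) turned to -0.30 with library totals. Rab8a fell from 61.1, 63.7 and 61.3 to 40.7, 46.6 and 47.2 CPM. Its groups did not overlap, and the log2 fold change was -0.47 ± 0.08 (SE) (adjusted p = 6.89e-05, edgeR). Rab13, known from cell junctions, had 3.43, 4.95 and 3.50 CPM with PBS and 8.46, 7.13 and 6.88 CPM with MoS2. It rose from a low level (log2 0.92 ± 0.19 (SE), adjusted p = 5.35e-04, edgeR), with 0.14 under library totals. Rab10 was not called (-0.09), and Rab35 fell slightly (-0.20, adjusted p = 0.0157, edgeR), a call lost without PBS replicate 2 or MoS2 replicate 2 (adjusted p of 0.0589 and 0.0721).

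**Figure D3:**
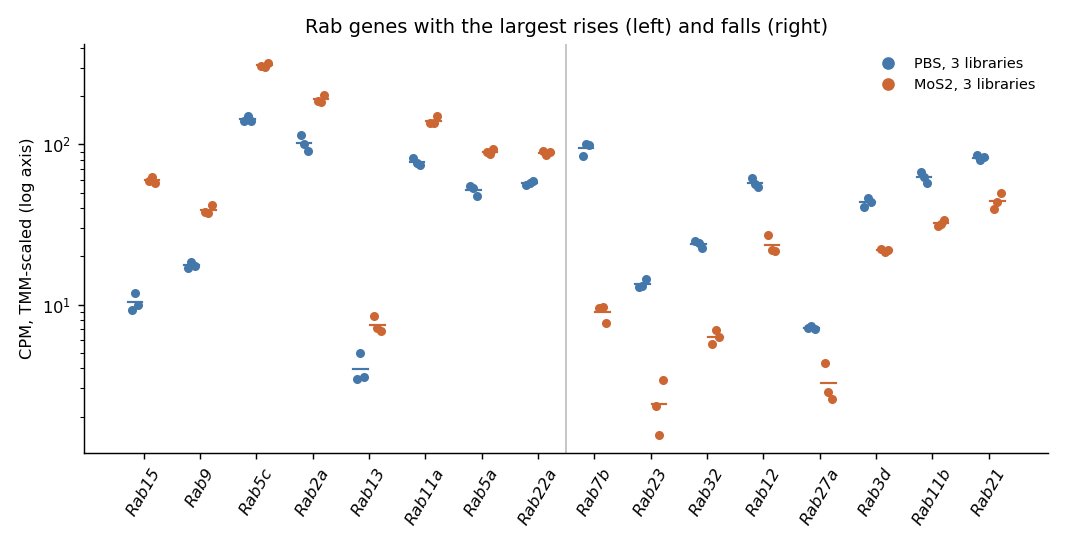
TMM-scaled CPM on a log axis of the 8 Rab genes with the largest rises (left) and the 8 with the largest falls (right) among called members with at least 5 CPM in a group; points are libraries and short lines are group means of 3. The 16 genes were picked for large called changes, and in none of them do the PBS and MoS2 points overlap.

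Of the 11 tested ER and Golgi members, 6 were called higher (54.5%, beside 38.3% of all genes), 4 lower (36.4%, beside 42.4%) and 1 neither. With library totals 1 was higher and 9 lower, beside 18.0% and 67.7% of all genes. Rab2a, which acts from the ER-Golgi boundary and in delivery to lysosomes, had 114, 100.4 and 90.6 CPM with PBS and 187, 185 and 203 CPM with MoS2. The lowest MoS2 library exceeded the highest PBS library by more than the range within either group (log2 0.92 ± 0.08 (SE), adjusted p = 1.30e-07, edgeR), with 0.14 under library totals. Rab2b, its scarcer paralogue, fell by 1.94 on the log2 scale (adjusted p = 1.11e-04, edgeR), though 59.3% of its exon bases lie opposite the uncharacterised Gm43766. With 13, 5 and 11 counts in the MoS2 libraries, Rab2b passed the low-count filter only through PBS, where it is high. Rab1a and Rab1b, of transport from the ER to the Golgi, changed by 0.34 and 0.16, which turned to -0.43 and -0.61 with library totals. Rab6a, of transport within and back from the Golgi, changed by 0.23, and Rab34, of the Golgi and lysosome position, by 0.32, which turned to -0.54 and -0.45 with library totals.

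Rab18, of lipid droplets and the ER, fell by 0.50 on the log2 scale, Rab19 by 0.87 and Rab43 by 0.50. The call of Rab43 (adjusted p = 0.0346, edgeR) was lost without PBS replicate 3 or MoS2 replicate 1 or 3, with adjusted p-values of 0.161, 0.115 and 0.0664, and 75.4% of its exon bases are shared with Gm45140. Rab1b lost its call without PBS replicate 2 or 3 or MoS2 replicate 1 (0.0640, 0.0625 and 0.102). For Rab6a this happened without PBS replicate 2 or 3 (0.0522 and 0.0656). In the case of Rab24 it took the loss of PBS replicate 2 or 3 or MoS2 replicate 1 or 3 (0.158, 0.0965, 0.0800 and 0.0661). Rab30 rose from 14 counts over the 3 PBS libraries to 43 over the MoS2 libraries, a log2 change of 2.41 ± 0.52 (SE) that was 1.64 with library totals and 3.24 without PBS replicate 2. Its counts were 3, 9 and 2 with PBS and 13, 13 and 17 with MoS2, so it was tested only through the libraries where it is high. Rab33b was not called (0.10). Exons of Rab6a and Rab20 also lie partly opposite other genes, for 19.0% of bases (Mrpl48) and 25.6% (E230013L22Rik).

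Regulated secretion held 9 members, of which 6 had too few counts to be tested. Rab27a, which docks lysosome-related granules at the surface, had 7.15, 7.34 and 7.05 CPM with PBS and 4.31, 2.84 and 2.56 CPM with MoS2. Its MoS2 libraries all lay below the PBS range (log2 -1.15 ± 0.20 (SE), adjusted p = 1.11e-04, edgeR). Rab3d, which acts on secretory granules, had 40.8, 46.1 and 43.9 CPM with PBS and 22.3, 21.2 and 21.9 CPM with MoS2. Its 2 groups were far apart, with a fall (log2 -0.999 ± 0.08 (SE), adjusted p = 8.10e-08, edgeR), while Rab3a overlapped between groups and was not called (0.09).

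Members outside these routes included Rab23, which acts at the primary cilium and restrains Hedgehog signalling. Rab23 had 12.9, 13.1 and 14.4 CPM with PBS and 2.32, 1.54 and 3.36 CPM with MoS2. No MoS2 library came near the PBS range, a 5.53-fold fall (log2 -2.47 ± 0.20 (SE), adjusted p = 6.67e-08, edgeR). Rab28, also found at cilia, had 45.0, 45.6 and 40.4 CPM with PBS and 60.1, 59.2 and 61.5 CPM with MoS2. Its groups were apart (log2 0.46 ± 0.07 (SE), adjusted p = 5.59e-05, edgeR), but the sign turned with library totals, to -0.31. Rab40c, which builds a ubiquitin ligase, was not called (0.12).

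The 18 members with too few counts to be tested were Rab17, Rab25, Rab26, Rab27b, Rab33a, Rab36, Rab37, Rab38, Rab39, Rab39b, Rab3b, Rab3c, Rab40b, Rab42, Rab44, Rab4b, Rab6b and Rab9b. The most abundant had 51 counts over the 6 libraries, and the least abundant tested member had 57. Rab36, Rab38 and Rab9b had none. Rab42 had 11 counts with PBS and 0 with MoS2, Rab4b 25 and 7, Rab25 18 and 6, and Rab33a 16 and 35, with no test. Rab4b shares 65.0% of its exon bases with Gm21983, so its count is uncertain as well.

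Paralogues of 1 subfamily were compared as shares of their summed reads per length within each library, which removes the scaling factors. Rab11a held 71.9% ± 0.639 with PBS and 89.9% ± 0.219 with MoS2, and Rab11b the rest. Rab5c held 70.6% ± 0.726 with PBS and 81.4% ± 1.001 with MoS2, and Rab5b held 18.7% ± 1.32 with PBS and 8.82% ± 1.14 with MoS2. Rab5a, the remaining member, held 10.7% ± 0.805 with PBS and 9.81% ± 0.193 with MoS2. Rab8b held 80.5% ± 0.380 with PBS and 88.8% ± 0.901 with MoS2 of the Rab8 pair. Rab11a, Rab5c and Rab8b held a larger share in every MoS2 library than in any PBS library. Of the Rab22a and Rab31 pair, Rab22a held 13.5% ± 0.639 with PBS and 19.4% ± 1.06 with MoS2. Rab1a held 41.1% ± 0.171 with PBS and 44.2% ± 0.801 with MoS2 of the Rab1 pair, and Rab2a held 98.5% ± 0.341 with PBS and 99.8% ± 0.0855 with MoS2 of the Rab2 pair. Rab3a held 16.1% ± 5.78 with PBS and 28.7% ± 5.40 with MoS2 of the Rab3 genes, with a wide spread between libraries. In all 15 shares the groups did not overlap, and the exact two-sided permutation test gave p = 0.1 (0.1 after Benjamini-Hochberg adjustment over the 15), the smallest p that 3 against 3 libraries can give, so none can pass 0.05. The shares of a pair are mirror images and count once.

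**Figure D4:**
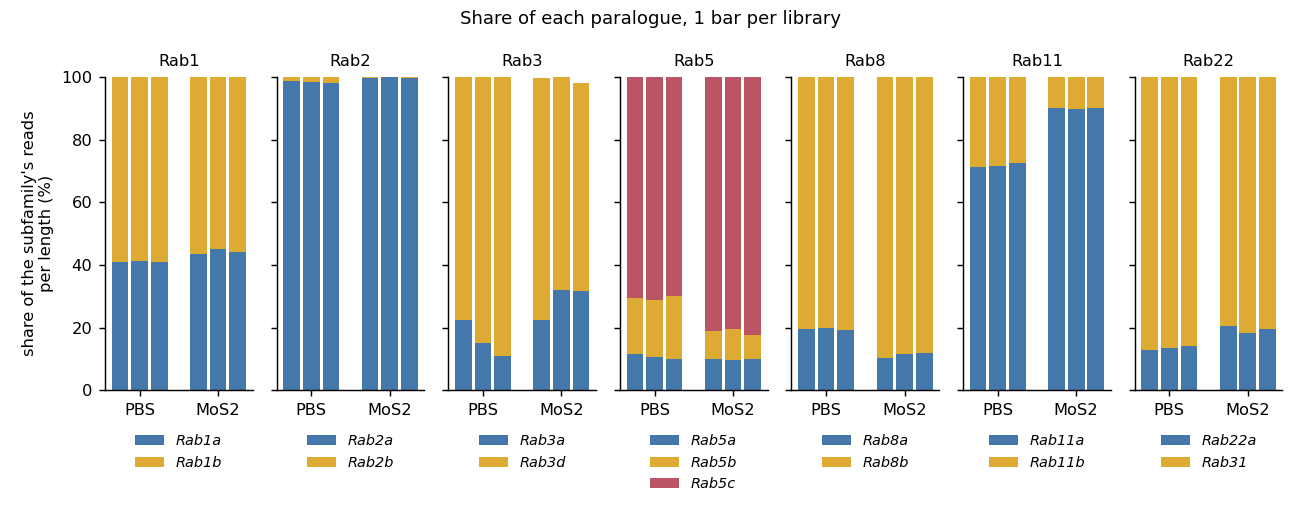
Share of each paralogue in the reads per length of its subfamily, as stacked bars from 0 to 100%, 1 bar per library, PBS on the left and MoS2 on the right of each panel. Rab11b, Rab5b and Rab8a take smaller shares in every MoS2 library than in any PBS library; the untested Rab3b and Rab3c fill the rest of the Rab3 bars.

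The start regions of the Rab5 and Rab8 genes are shown, as close paralogues whose calls differed. Each is the 250 bases upstream of the RefSeq start (GRCm38.p6), written 5′ to 3′ on the gene's strand, and lies outside the annotated gene. Calls differed in other subfamilies too, whose regions are not shown. Among these, the regions of Rab11a and Rab11b reach 2 and 44 bases into the annotated gene. Capitals mark matches to 2 core promoter motifs on either strand: the GC box (GGGCGG, or CCGCCC on the other strand) and the CCAAT box (CCAAT, or ATTGG on the other strand), with any other searched motif also in capitals. They lie at chr17:53478984-53479233 (Rab5a, plus strand), chr10:128696269-128696518 (Rab5b, minus), chr11:100738216-100738465 (Rab5c, minus), chr8:72160950-72161199 (Rab8a, plus) and chr9:66919706-66919955 (Rab8b, minus).
Rab5a: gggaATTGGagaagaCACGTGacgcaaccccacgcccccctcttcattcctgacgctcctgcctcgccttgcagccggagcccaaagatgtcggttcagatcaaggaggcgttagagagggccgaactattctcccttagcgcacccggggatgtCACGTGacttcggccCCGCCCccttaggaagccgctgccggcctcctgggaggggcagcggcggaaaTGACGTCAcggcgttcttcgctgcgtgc
Rab5b: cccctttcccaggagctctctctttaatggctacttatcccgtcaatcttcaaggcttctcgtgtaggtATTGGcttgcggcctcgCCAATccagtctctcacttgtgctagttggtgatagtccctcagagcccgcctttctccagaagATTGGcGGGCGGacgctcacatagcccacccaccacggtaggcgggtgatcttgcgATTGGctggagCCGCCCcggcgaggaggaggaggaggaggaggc
Rab5c: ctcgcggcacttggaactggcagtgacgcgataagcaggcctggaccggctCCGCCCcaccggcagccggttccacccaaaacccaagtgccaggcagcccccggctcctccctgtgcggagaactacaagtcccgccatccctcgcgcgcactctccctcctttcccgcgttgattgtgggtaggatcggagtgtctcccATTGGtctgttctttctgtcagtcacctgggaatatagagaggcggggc
Rab8a: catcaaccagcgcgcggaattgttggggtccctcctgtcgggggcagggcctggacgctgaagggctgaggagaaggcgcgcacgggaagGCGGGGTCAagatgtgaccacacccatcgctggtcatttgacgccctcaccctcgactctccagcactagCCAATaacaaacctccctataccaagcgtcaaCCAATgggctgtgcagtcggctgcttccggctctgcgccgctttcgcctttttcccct
Rab8b: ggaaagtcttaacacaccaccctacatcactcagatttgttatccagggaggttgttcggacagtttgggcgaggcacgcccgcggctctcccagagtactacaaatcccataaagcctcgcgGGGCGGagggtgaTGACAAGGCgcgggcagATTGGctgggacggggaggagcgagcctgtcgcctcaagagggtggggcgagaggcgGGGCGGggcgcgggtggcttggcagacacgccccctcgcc

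Rab5b, the Rab5 gene that was not called, held 2 GC boxes and 4 CCAAT boxes. Rab5c held 1 of each, and Rab5a held 1 of each together with 2 CACGTG E-boxes and 1 TGACGTCA, the cAMP response element. Rab8a had 2 CCAAT boxes and no GC box, whereas Rab8b had 1 CCAAT box and 2 GC boxes. Both Rab8 windows also held 1 TGACNNNGC. The windows of paralogues thus differ in their letters, and what those letters do in these cells was not tested.

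Such windows were found for 48 of the 59 Rab genes, 60 windows in all because some genes have several starts. A GC box was present in 66.7% of them and in 32.7% of the 32851 windows of all genes. CCAAT was present in 40.0% and 33.8%, and TATAAA, the TATA box, in 6.67% and 12.4%. The CLEAR-type E-box CACGTG, known from lysosomal genes, was present in 8.33% and 6.02%, and the TGACNNNGC core bound by NRF2 in 11.7% and 10.2%. The remaining motifs searched were rare: the AP-1 site TGANTCA (3.33% of Rab windows and 6.75% of all), the cAMP response element TGACGTCA (3.33% and 1.55%), the PU.1 site GAGGAAGT (3.33% and 2.44%), the ATF4 and C/EBP site TGATGNAAT (1.67% and 0.816%) and the interferon response element (1.67% and 2.98%). The Rab windows had a median GC content of 60.2% against 52.4% over all windows. Windows of tested Rab genes held a median of 17 CpG, those of untested ones 8, and all windows 6. These are descriptions of letters in a window, and no site was measured here.

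Among the other genes of the Rab cycle more were lower than higher. Of 159 regulators and effectors 147 were tested, 42 were called higher (28.6%, beside the 38.3% of all genes), 78 lower (53.1%, beside 42.4%) and 27 neither, with a median log2 fold change of -0.34. With library totals 11 were higher and 121 lower, beside 18.0% and 67.7% of all genes. With the length trend removed, 50 were higher and 60 lower, beside 5217 and 5132 of all tested genes. The excess of falls was thus smaller in that setting. No test was made over these lists. Up to 4 members with the smallest adjusted p of each list are named below, and Rabggta, Rin1, Rabgef1, Rab3ip, Hps4, Eea1 and Vps39 were chosen after their values were seen.

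The factors that attach the lipid anchor to Rabs and extract them from membranes were 8 tested genes. With TMM factors 5 were higher (62.5%, beside 38.3% of all genes) and 2 lower (25.0%, beside 42.4%). With library totals 3 were higher and 3 lower, beside 18.0% and 67.7% of all genes. The list median was then -0.06, against -0.85 over all genes. Rabggtb, the catalytic subunit of Rab geranylgeranyl transferase, went from 36.6 ± 5.00 to 163 ± 8.75 CPM (SD, n = 3), a log2 change of 2.15 ± 0.09 (SE) and 1.38 with library totals. Its partner subunit Rabggta changed by 0.63 but by -0.14 with library totals. Gdi2, a dissociation inhibitor that keeps Rabs soluble, went from 276 ± 14.1 to 528 ± 21.3 CPM (0.94, and 0.16 with library totals). Rabac1, a membrane receptor for prenylated Rabs, changed by 1.35, and by 0.57 with library totals. Chml, an escort protein for prenylation, fell by 1.55 on the log2 scale.

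GEFs mostly fell: of 36 tested, 26 were lower (72.2%, beside 42.4% of all genes) and 6 higher (16.7%, beside 38.3%), with a median of -0.51 against -0.08 over all genes. With library totals, where 67.7% of all genes were lower and 18.0% higher, 32 GEFs were lower and 2 higher. Their median was then -1.29, against -0.85 over all genes. Among them are the Rab5-family activators Rin2 and Rin3. Rin2 went from 116 ± 3.60 to 20.3 ± 1.06 CPM (-2.51 ± 0.08 (SE), adjusted p = 3.41e-12, edgeR) and Rin3 from 41.4 ± 3.34 to 8.38 ± 0.544 CPM (-2.31). Rinl and Rin1 had -1.93 and -1.98. Rabgef1, another Rab5 activator, instead changed by 1.15, and by 0.38 with library totals. Hps1, which with Hps4 forms the complex that activates Rab32 and Rab38, went from 68.1 ± 3.36 to 17.9 ± 0.800 CPM (-1.93), beside -0.38 for Hps4. Rab3ip, an activator of Rab8 proteins, changed by 1.63, and by 0.85 with library totals.

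TRAPP, the multisubunit activator of Rab1 and Rab11 proteins, was mixed. Of its 14 subunits 7 were higher (50.0%, beside 38.3% of all genes) and 5 lower (35.7%, beside 42.4%). With library totals 1 was higher and 11 lower, beside 18.0% and 67.7% of all genes. Trappc2l changed by 1.88 (1.10 with library totals) and Trappc6a by 0.75 (-0.03), while Trappc12 and Trappc10 changed by -1.42 and -1.28. GAPs, the inactivators, were lower in 22 (56.4%, beside 42.4% of all genes) and higher in 11 (28.2%, beside 38.3%) of 39 tested genes, with a median of -0.47. With library totals, where 67.7% of all genes were lower and 18.0% higher, 33 GAPs were lower and 3 higher. Their median was then -1.24, against -0.85 over all genes. Grtp1, Tbc1d2b and Tbc1d14 fell by 2.34, 2.08 and 1.59 on the log2 scale. Sgsm1 went the other way, at 1.63 and 0.86 with library totals.

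Among 37 tested effectors, 9 were higher (24.3%, beside 38.3% of all genes), 17 lower (45.9%, beside 42.4%) and 11 not called. With library totals 2 effectors were higher and 30 lower, beside 18.0% and 67.7% of all genes. Within the Rab11 family of interacting proteins the members split. Rab11fip3, which acts in cell division and recycling, went from 25.6 ± 2.02 to 3.29 ± 0.505 CPM (-2.97), and Rab11fip1 from 27.1 ± 3.84 to 74.6 ± 3.67 CPM (1.46, and 0.69 with library totals). Micall2, an effector of Rab13 and Rab8 proteins, changed by 1.44 (0.67 with library totals), and Rufy1, of early endosomes, by -0.98. Eea1, the tether that Rab5 recruits, went from 177 ± 9.22 to 276 ± 8.62 CPM, a change of 0.64 that turned to -0.13 with library totals.

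The HOPS and CORVET complexes tether late and early endosomal membranes under Rab7 and Rab5. Of their 10 subunits 3 were higher (30.0%, beside 38.3% of all genes) and 4 lower (40.0%, beside 42.4%). With library totals, where 67.7% of all genes were lower, all 10 were lower. Vps18, shared by both complexes, went from 111 ± 5.41 to 28.0 ± 2.14 CPM (-1.98). The CORVET-specific Vps8 and Tgfbrap1 had -1.36 and -1.57, while Vps39, of HOPS, and the shared Vps11 had 0.59 and 0.53, which turned to -0.18 and -0.24 with library totals. Of the kinases that phosphorylate Rabs, Lrrk1 went from 42.2 ± 3.54 to 13.0 ± 0.907 CPM (-1.70), and Lrrk2 from 57.6 ± 5.47 to 96.8 ± 6.91 CPM (0.75, but -0.02 with library totals). Ppm1h, a phosphatase of Rabs, changed by -0.58.

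**Figure D5:**
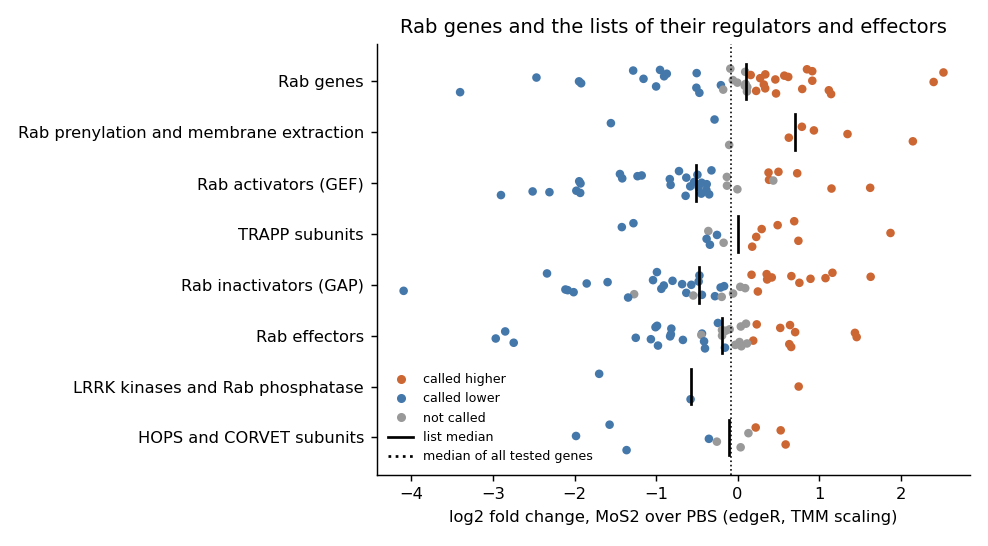
Log2 fold change (MoS2 over PBS, edgeR with TMM factors) of every tested Rab gene and of every tested gene in 7 lists of Rab regulators and effectors, 1 point per gene coloured by call; thick lines are list medians and the dotted line is the median of all tested genes. The GEF and GAP medians, -0.51 and -0.47, lie left of that line and the prenylation and extraction median, 0.71, right of it. With library totals the 3 medians are -1.29, -1.24 and -0.06, beside -0.85 over all tested genes.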

How the data were processed

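Bulk RNA-seq libraries of RAW264.7 cells (3 PBS, 3 MoS2) were analysed from 1 deposited table. TRIzol extraction, a NEBNext Ultra library kit and NovaSeq paired-end sequencing are given per the labels' protocols. The tools named, per the submitters' processing notes, were featureCounts 1.6.1, HISAT2 2.1.0 and fastp 0.20.0. The deposited values are raw counts per gene, not normalized by the authors. Those notes list GRCh38, which is human, yet the identifiers are mouse, and 54349 of 55401 match GENCODE M21 (GRCm38) in version and coordinates, as do all 59 members. With the strand setting and the rule for reads with several hits not given in the sources used here, overlapping genes and near-identical copies are uncertain. Columns were matched to samples by letter (M, c) and replicate number.

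Counts were tested with edgeR 4.0.16 (R 4.3.3) by the quasi-likelihood F test, with group as the only term, TMM factors, the default low-count filter, a prior count of 0.125 and Benjamini-Hochberg adjustment over 12972 genes. A call is an adjusted p under 0.05. The standard error (SE) is approximate, the absolute log2 change divided by the root of F. On simulated data with 200 changed genes of 12683, the fit recovered 84.7% of changes of log2 size 1 and 96.9% of size 2, with 6.38% of calls false. Few genes changed there, in both directions alike, against 80.7% called in the data, so the simulation does not test the scaling factors. Levels per length are CPM over the summed exon length of GENCODE M21. Motifs were searched on both strands of the RefSeq windows. The chi-square of counts per degree of freedom between replicates was 3.02 or more, so replicates differed by more than counting error. This cannot tell separate cultures from separate preparations of 1 culture. Log-CPM correlated across genes at 0.988 to 0.993 within groups, where genes are not independent.

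The members, compartment classes and gene lists were chosen with earlier results of these data known. Of 252 list entries, 251 matched. Values in every library are given for called members with at least 5 CPM in a group (the 8 largest rises and the 8 largest falls) and for the most abundant member of each class. Up to 4 members of each regulator list with the smallest adjusted p are named. Alternatives were RLE and upper-quartile factors, library totals, no low-count filter, 1 CPM in 3 libraries, DESeq2 1.42.0, limma-voom (limma 3.58.1), a replicate block, an offset that removes the gene-length trend within libraries, an adjusted p under 0.01, shares without length scaling, and leaving out each library. A few results are not reported here.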

Additional observations from a re-analysis of the deposited data

How the results depend on the processing

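Library totals alone moved the counts most: 2334 genes were called higher and 8786 lower, of them 4 and 32 Rab genes, and 11 and 121 regulators and effectors. The median log2 change of the Rab genes was -0.0313 with upper-quartile factors, -0.67 with library totals and 0.0263 with no low-count filter, settings that moved the median gene by -0.13, -0.772 and -0.0805. With library totals the sign turned for Rab1b (-0.61), Rab6a (-0.54), Rab24 (-0.50), Rab34 (-0.45), Rab4a (-0.43), Rab1a (-0.43), Rab28 (-0.31), Rab8b (-0.30), Rab20 (-0.20), Rab22a (-0.15), Eea1 (-0.13), Lrrk2 (-0.0213), Rabggta (-0.14), Trappc6a (-0.0284), Vps11 (-0.24) and Vps39 (-0.18). Removing 1 library at a time left 28 to 33 Rab genes called (15 to 18 higher, 13 to 15 lower), 110 to 121 regulators and effectors (36 to 41 higher, 71 to 80 lower) and 10177 to 10634 genes (4843 to 5070 higher, 5334 to 5564 lower), with a Rab median of 0.08 to 0.13. Replicate numbers did not pair the libraries: deviations of same-numbered libraries correlated at -0.02, -0.01 and -0.14. With the replicate block 10203 genes, 30 Rab genes (16 higher, 14 lower) and 115 regulators and effectors were called, and Rab1b (adjusted p = 0.0744) and Rab4a (0.0872) lost their call. Calls of Rab43, Rab35, Rab1b, Rab6a, Rab24 and Rab4a did not pass an adjusted p of 0.01, and Rab20 (log2 0.07) lost its call with the length trend removed; the cause was not tested. Other call changes were losses of Rab1b, Rab6a, Rab24 and Rab4a with upper-quartile factors or no low-count filter, of Rab43, Rab35 and Rab4a with DESeq2, of Rab43 with limma-voom, and of Rab43, Rab1b, Rab24 and Rab4a with the length trend removed. Gains were Rab5b and Rab10 (upper-quartile factors, no low-count filter; lower), Rab14 (RLE factors, length trend; higher), Rab7 (RLE factors, DESeq2; higher), Rab31 (length trend; higher) and Rab29 (length trend; lower), beside those with library totals. Named regulators kept direction and call in every setting other than library totals. Without length scaling the shares of Rab11a, Rab5c, Rab22a and Rab2a rose by 25.8, 13.4, 8.49 and 2.45 points, and that of Rab5b fell by 13.3. Length scaling cannot turn the direction within a pair of genes, so this is no check on Rab11a, Rab22a or Rab2a. The Rab5 shares kept their directions, with Rab5a at -0.07 points, beside -0.87 with length scaling. Depth limits the 18 Rab genes with too few counts to be tested.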

Other observations

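Another family of small GTPases gives a setting for the Rab values, with no test between families. The Arf and Arl genes, which recruit vesicle coats and tethers, had 22 of 25 members tested, with a median log2 change of -0.02. Of the 22, 9 were called higher (40.9%, beside 38.3% of all genes) and 10 lower (45.5%, beside 42.4%). With library totals 2 were higher and 16 lower, beside 18.0% and 67.7% of all genes. Over the 41 tested Rab genes, the log2 change had a Spearman correlation of 0.09 with the PBS level per length, -0.23 with summed exon length and 0.21 with the span of the gene, as a description over genes of the same libraries.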
